A study of Rattus norvegicus with 2 samples.

Results

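A group of non-muscle cytoskeleton and tropomyosin genes of the rat carotid artery was read in single cells. The group comprises the cytoplasmic actins Actb and Actg1, the non-muscle myosin heavy chains Myh9 and Myh10, and the cross-linker Flna. It also holds the tropomyosins Tpm1, Tpm2 and Tpm4, and the intermediate filament genes Vim and Des. The genes were found by symbol, and all 10 were among the 32623 genes counted. The control group was the untreated left carotid artery of SD rats, and the case group was the right carotid artery after balloon injury. The labels give an age of 12 weeks. Each library pooled the arteries of 2 rats, taken 28 days after the procedure. There was 1 library per group, so no difference below has a replicate check, and none was tested. The control artery came from operated animals, and no sham-operated artery is among the samples.

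Actin filaments are built from isoforms that differ in a few residues. Acta2 marks the contractile filaments of vascular smooth muscle cells (VSMCs), while Actb and Actg1 build the cortex and stress fibres of nearly every cell. Tropomyosins lie along the filament and set which partners can bind, and Myh9 and Myh10 slide these filaments in cells that do not contract as muscle. Flna links filaments to each other and to integrins. Vim is the intermediate filament of mesenchymal cells and Des that of muscle cells, and VSMCs can hold both. Many contractile and cytoskeletal genes are targets of serum response factor, which binds a motif named the CArG box, and some carry the MCAT motif (CATTCC), which TEAD factors bind.

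The promoters of Actg1, the less counted actin, and of Tpm1 and Tpm2, the tropomyosins of VSMC-like cells that differed between the libraries in opposite directions, are shown because these genes carry the contrasts below. They span 250 bases before to 50 bases after the start in RefSeq annotation of build GRCr8, read 5′ to 3′ along the gene. Capitals mark a CArG box or an MCAT motif found on either strand. The series was counted on build Rnor_6.0, so these positions hold for GRCr8 only.
Actg1 (chr10:106120902-106121201, minus strand): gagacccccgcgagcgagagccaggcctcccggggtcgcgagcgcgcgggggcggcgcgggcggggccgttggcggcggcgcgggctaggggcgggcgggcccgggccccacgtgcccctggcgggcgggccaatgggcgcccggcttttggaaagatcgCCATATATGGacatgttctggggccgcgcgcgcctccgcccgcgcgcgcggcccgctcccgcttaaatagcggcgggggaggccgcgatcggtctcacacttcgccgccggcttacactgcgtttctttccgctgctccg
Tpm1 (chr8:76543366-76543665, minus strand): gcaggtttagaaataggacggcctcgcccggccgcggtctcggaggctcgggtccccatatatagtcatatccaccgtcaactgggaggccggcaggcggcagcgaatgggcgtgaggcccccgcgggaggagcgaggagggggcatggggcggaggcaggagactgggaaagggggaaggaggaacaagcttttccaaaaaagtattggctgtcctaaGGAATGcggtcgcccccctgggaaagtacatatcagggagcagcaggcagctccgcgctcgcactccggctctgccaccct
Tpm2 (chr5:62575677-62575976, minus strand): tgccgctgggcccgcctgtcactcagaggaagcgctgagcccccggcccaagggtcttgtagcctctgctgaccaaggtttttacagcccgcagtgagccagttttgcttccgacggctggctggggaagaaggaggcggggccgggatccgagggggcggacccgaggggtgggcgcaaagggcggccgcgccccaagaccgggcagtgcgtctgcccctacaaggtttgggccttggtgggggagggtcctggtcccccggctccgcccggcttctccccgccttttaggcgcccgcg
The Actg1 promoter held a CArG box, with its first base 90 bases before the start. The Tpm1 promoter held an MCAT motif on the opposite strand, where it reads GGAATG, with its first base 31 bases before the start. The Tpm2 window held neither. Promoters of 9 of the 10 genes were in the table, with 2 entries for Myh9. A CArG box was present for 1 of these 9 genes and an MCAT motif for 3 (Myh10, Flna and Tpm1). Of all 33469 promoters of 300 bases in that table, 1.64% held a CArG box and 14.2% an MCAT motif. A match is a description of letters in this window.

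After filtering, 2742 of 3321 control barcodes and 4930 of 5656 case barcodes were kept, with medians of 8880 and 5156 unique molecular identifiers (UMIs) per cell. Barcodes were assigned to a group by the number that the methods state for each library, and 21 barcode sequences were found in both. Cells were put into classes by marker UMIs. VSMC-like cells numbered 1085 in the control and 2010 in the case library, fibroblast-like cells 774 and 1493, endothelial-like cells 60 and 264, macrophage-like cells 42 and 114, and Schwann-like cells 24 and 66. A further 512 control and 439 case cells held VSMC and fibroblast markers side by side and entered no class, with median depths of 1243 and 5197 UMIs. Of VSMC-like cells, 202 control and 4 case cells held fewer than 1000 UMIs. A class is a range on a marker score, and cells whose VSMC share of marker UMIs lay between 70 and 90%, on either side of the limit of 80%, numbered 778 in the control and 1422 in the case library. When cells were clustered instead, 1 VSMC-like cluster held 836 control and 91 case cells, and the 2 largest, also VSMC-like, held 119 and 54 control cells against 1276 and 1221 case cells, so that different clusters make up most of the class in each library.

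The classes carried their defining markers. Myh11, the myosin of smooth muscle, stood at 4940 CPM (its UMIs per 1000000 UMIs of all genes, added up over the class) in control VSMC-like cells and 162 CPM in control fibroblast-like cells. Dcn, a matrix proteoglycan, stood at 14718 CPM in control fibroblast-like cells and 187 CPM in VSMC-like cells. Vwf was at 1108 CPM in control endothelial-like cells and C1qb at 1552 CPM in control macrophage-like cells, against 0.529 CPM of Vwf and 0.353 CPM of C1qb in VSMC-like cells of that library. The VSMC markers were less confined. The 6 VSMC markers together took 2.76% of UMIs in control VSMC-like cells, while they took 0.314% in macrophage-like, 0.301% in endothelial-like and 0.101% in fibroblast-like cells. In the case library these shares were 2.26, 0.212, 0.253 and 0.0993%. VSMC marker UMIs were thus counted in cells that should lack them, which touches every gene that VSMCs express strongly.

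Actb was among the most widely found of the genes. In VSMC-like cells it reached 1445 CPM in the control library (exact 95% Poisson interval 1423 to 1467) and 1062 CPM in the case library (1044 to 1081). Fibroblast-like cells held less, with 585 CPM in the control and 529 CPM in the case library. Endothelial-like cells held 1270 and 1296 CPM, macrophage-like cells 955 and 755 CPM, and Schwann-like cells 786 and 583 CPM. VSMC-like cells led in the control library, 1.14-fold above endothelial-like cells (1.05 to 1.23), and endothelial-like cells led in the case library, where VSMC-like cells stood at 0.819 of their level (0.779 to 0.862). Macrophage-like and Schwann-like cells of the control library did not differ in Actb beyond counting error, nor did Schwann-like and fibroblast-like cells of the case library. Intervals here and below cover counting error only, not the spread between animals or libraries.

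Actg1, the second cytoplasmic actin, was counted at low levels. VSMC-like cells held 55.7 CPM in the control library (632 UMIs) and 27.8 CPM in the case library (328 UMIs). Fibroblast-like cells held 48.1 and 22.9 CPM, and macrophage-like cells 92.6 and 39.0 CPM. Endothelial-like cells held 116 CPM in the control and 113 CPM in the case library. Their lead over macrophage-like cells was beyond counting error in the case library (log2 1.53, 0.93 to 2.19). In the control library it was not (0.32, -0.30 to 0.97). The case library was thus lower by a log2 of 1.00 or more in 3 classes, while in endothelial-like cells the log2 ratio was -0.04 (-0.49 to 0.42). In Schwann-like cells the gene rested on 3 control and 2 case UMIs. Actb and Actg1 encode proteins that differ in a few residues, and reads that fit both genes are left out in this kind of counting. How many reads this took from either gene was not tested, and the levels of both are uncertain.

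Of the non-muscle myosins, only Myh10 could be followed. Myh9, the heavy chain of non-muscle myosin IIA, had 1 UMI in all 8977 barcodes, in a control cell with markers of both VSMCs and fibroblasts. A count of 0 allows up to 3 UMIs, which corresponds to 0.264 CPM in control and 0.254 CPM in case VSMC-like cells, and 2.24 CPM in case endothelial-like cells. Myh9 is listed at or near 0 in these counts, and no level or difference can be read for it. Myh10, the heavy chain of non-muscle myosin IIB, was highest in VSMC-like cells, with 301 CPM in the control (291 to 311) and 261 CPM in the case library (252 to 270). That was 5.09-fold the fibroblast level in the control (4.64 to 5.61) and 3.84-fold in the case library (3.51 to 4.21). Fibroblast-like cells held 59.1 and 68.0 CPM and endothelial-like cells 58.0 and 44.1 CPM, and these neighbours did not differ beyond counting error in the control library. Macrophage-like cells held 43.7 and 36.0 CPM.

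Flna, which cross-links actin into networks, was counted at 2554 CPM in control VSMC-like cells (2525 to 2584) and 2994 CPM in case VSMC-like cells (2963 to 3026). In fibroblast-like cells it was at 203 and 235 CPM, in endothelial-like cells at 450 and 536 CPM, and in macrophage-like cells at 322 and 360 CPM. VSMC-like cells stood 12.6-fold above fibroblast-like cells in the control and 12.8-fold in the case library. Schwann-like cells held 201 CPM from 24 control UMIs and 424 CPM from 115 case UMIs, and their smooth muscle marker share moved the same way, from 0.135 to 0.331%. What part such UMIs had in the Schwann values was not tested.

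The tropomyosins split by gene. Tpm1 and Tpm2 were VSMC genes here, whereas Tpm4, a tropomyosin of non-muscle cells, was not. Tpm1 reached 4654 CPM in control (4615 to 4694) and 5317 CPM in case VSMC-like cells (5276 to 5359), against 287 and 378 CPM in fibroblast-like cells. Endothelial-like cells were second, with 804 and 927 CPM. Tpm2 reached 5600 CPM in control (5557 to 5644) and 3642 CPM in case VSMC-like cells (3607 to 3676). Its level in fibroblast-like cells was 212 and 141 CPM, in endothelial-like cells 472 and 310 CPM, and in macrophage-like cells 458 and 286 CPM. VSMC-like cells stood 26.4-fold above fibroblast-like cells in Tpm2 in the control (25.2 to 27.7) and 25.8-fold in the case library (24.3 to 27.3). Tpm4 was highest in endothelial-like cells, with 182 CPM in the control and 202 CPM in the case library, followed by VSMC-like cells with 141 and 112 CPM. The endothelial lead was 1.29-fold in the control and 1.81-fold in the case library.

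Vim was found in every class and was highest in Schwann-like cells, with 7679 CPM in the control and 7789 CPM in the case library. VSMC-like cells followed with 4457 CPM in the control and 3381 CPM in the case library. Endothelial-like cells held 2249 and 2694 CPM, fibroblast-like cells 1564 and 1682 CPM, and macrophage-like cells 1505 and 1794 CPM. The distance between VSMC-like and endothelial-like cells was 1.98-fold in the control (1.87 to 2.10) and 1.26-fold in the case library (1.21 to 1.30). Des was a VSMC gene at low level, with 80.4 CPM in control (75.3 to 85.8) and 50.9 CPM in case VSMC-like cells (46.9 to 55.1). It was at 3.65 and 3.78 CPM in fibroblast-like cells, from 31 UMIs in each library, and it had 0 UMIs in control and 4 UMIs in case macrophage-like cells.

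**Figure D1:**
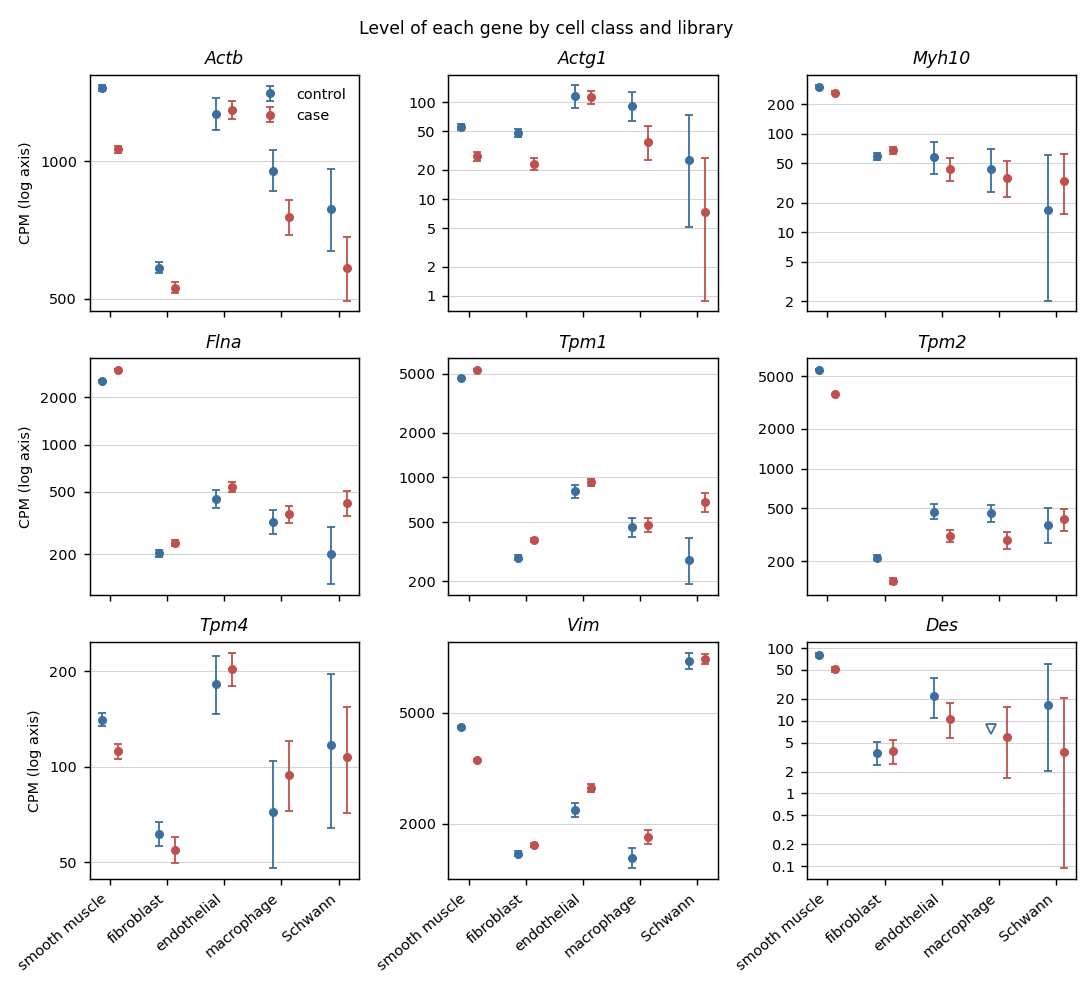
Level of 9 genes in CPM (log axes that differ between panels) in 5 cell classes of the control (blue) and case (red) libraries; points are sums over the cells of a class, bars exact 95% Poisson intervals for counting error, and the open triangle is the limit that a count of 0 allows. Tpm1, Tpm2, Flna, Myh10 and Des stood highest in smooth muscle, Tpm4 in endothelial and Vim in Schwann cells of both libraries; Myh9 is not drawn, as it had 1 UMI in all.

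The libraries were then compared within each class. In VSMC-like cells, 1341 genes averaged at least 100 CPM. Their median log2 ratio of case over control was -0.13, and 80% of them lay between -0.76 and 0.55. Scaling by the trimmed mean of M-values (TMM) shifts every ratio in this class upward by 0.13 on the log2 scale, and by 0.27 in endothelial-like and 0.10 in Schwann-like cells. In VSMC-like cells, 2 genes were higher in the case library, Flna with a log2 ratio of 0.23 (0.21 to 0.25) and Tpm1 with 0.19 (0.18 to 0.21). Relative to the median of the class they were higher by 0.36 and 0.33. The other 7 counted genes were lower in the case library. Tpm2 had a log2 ratio of -0.62 (-0.64 to -0.60), Actb of -0.44 (-0.48 to -0.41), Vim of -0.40 (-0.42 to -0.38), and Tpm4 of -0.33 (-0.44 to -0.23). Myh10 stood at -0.21 (-0.28 to -0.14), which is -0.07 relative to the median of the class. The genes of low level were Actg1, at 0.499 of the control level (log2 interval -1.20 to -0.81), and Des with -0.66 (-0.81 to -0.51). These 9 signs were kept under each alternative that was run, with the values for Flna between 0.17 and 0.36 and those for Tpm2 between -0.69 and -0.49.

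Set beside all genes, few of these differences were large. With a limit of 1.5-fold and a mean of at least 100 CPM, 0 of 7 genes of the group were higher and 1 (Tpm2) was lower in VSMC-like cells, where 9.55% of all genes were higher and 17.7% lower. With the minimum lowered to 20 CPM, 0 of 9 were higher and 3 (Actg1, Tpm2 and Des) were lower, against 6.03% and 15.7% of all genes. In fibroblast-like cells, 0 of 5 were higher and 1 (Tpm2) was lower at 100 CPM, against 8.17% and 15.1% of all genes. At 20 CPM, 0 of 8 were higher and 2 (Actg1 and Tpm2) were lower, against 6.08% and 13.3%. Endothelial-like cells had 0 of 7 higher and 1 (Tpm2) lower, where 16.7% and 22.8% of all genes passed. Macrophage-like cells had 0 of 5 higher and 1 (Tpm2) lower, where 11.9% and 15.6% passed. Tpm2 lay close to the limit, at 0.650 of the control level in VSMC-like and 0.666 in fibroblast-like cells, and TMM scaling took it out of the limit in all 4 classes. Schwann-like cells, with 24 cells in the control library, were not counted against the limit. There Tpm1 had a log2 ratio of 1.31 (0.77 to 1.89), from 33 and 185 UMIs, and Flna one of 1.08 (0.44 to 1.78), beside the rise in smooth muscle marker share given above. Per VSMC marker UMI, Tpm1 in these cells stood at 1.21 times the VSMC ratio in the control and 0.877 times in the case library. With TMM scaling, 13.0% of all genes were higher and 11.7% lower in VSMC-like cells, 27.4% and 11.8% in endothelial-like cells, and 15.1% and 11.2% in macrophage-like cells. The median log2 ratio of the tested genes of the group was -0.33 in VSMC-like and 0.11 in fibroblast-like cells, beside -0.13 and -0.07 over all genes tested.

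**Figure D2:**
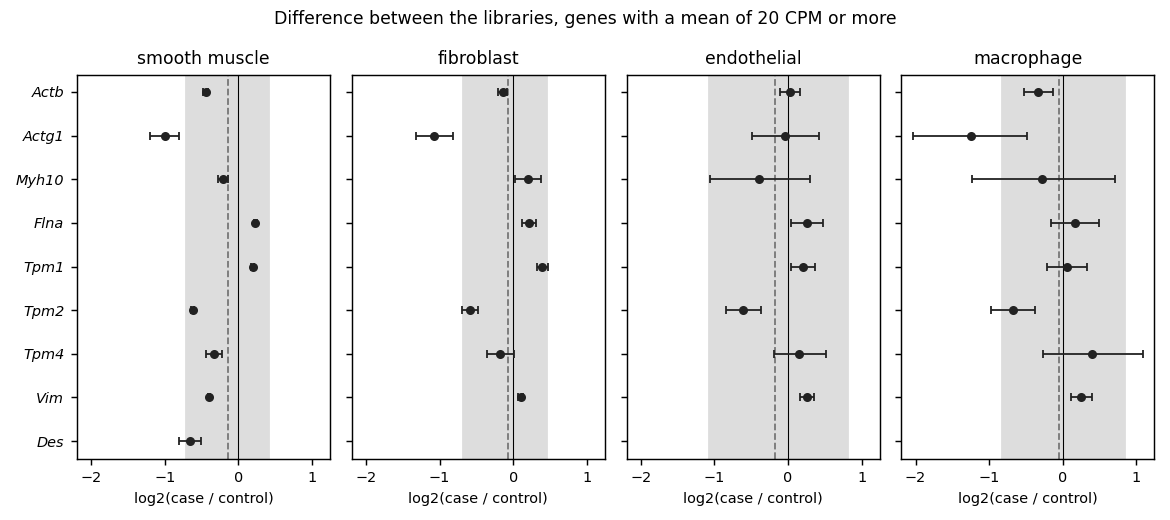
Log2 ratio of case over control for genes that averaged at least 20 CPM in each of 4 cell classes; points are ratios of summed UMIs, bars exact 95% intervals for counting error, the dashed line is the median and the grey band the range of 80% of all genes with at least 20 CPM in that class. As summed UMIs, Flna and Tpm1 lay above 0 in all 4 classes, with intervals that include 0 in macrophages. Tpm2 lay below 0 in all 4, while Vim lay below 0 in smooth muscle and above 0 in the other classes.

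Fibroblast-like cells shared some of these directions and not others. Tpm1 was higher in the case library with a log2 ratio of 0.40 (0.32 to 0.47), at percentile 85.1 of all genes tested in that class. Its ratio moved to 0.13 when CPM was averaged per cell and to 0.56 with classes from Leiden clusters. Flna was higher with 0.21 (0.12 to 0.31), or -0.03 when CPM was averaged per cell. Tpm2 was lower with -0.59 (-0.69 to -0.48), a value that moved to -0.17 with classes from Leiden clusters and to -1.34 when CPM was averaged per cell, and Actg1 with -1.07 (-1.33 to -0.82). Vim was slightly higher, with 0.11 (0.07 to 0.14), and Myh10 with 0.20 (0.03 to 0.38), whereas both were lower in VSMC-like cells. Actb stood at -0.14 (-0.20 to -0.09), and Tpm4 did not differ beyond counting error, at -0.17 (-0.36 to 0.01). In endothelial-like cells Vim was higher with 0.26 (0.16 to 0.36), and Actb did not differ beyond counting error (0.03, -0.10 to 0.16). In macrophage-like cells Vim was higher with 0.25 (0.11 to 0.40) and Actb lower with -0.34 (-0.53 to -0.14). Flna (0.16, -0.16 to 0.48) and Tpm1 (0.06, -0.21 to 0.33) did not differ there beyond counting error. Flna came to -0.15 with cells thinned to 1000 UMIs. Tpm1 came to -0.40 with macrophage-like cells of 0.5% or more VSMC marker UMIs left out. The macrophage values of Vim and Actb changed sign when cells were thinned to 1000 UMIs, to -0.03 and 0.05, and that of Actb also with marker limits doubled, to 0.04.

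Because VSMC marker UMIs were counted in every class, each gene was set against the 6 VSMC markers. In VSMC-like cells there were 20.3 Tpm2 UMIs per 100 VSMC marker UMIs in the control library (20.1 to 20.5) and 16.1 in the case library (16.0 to 16.3). Endothelial-like cells had 15.7 and 12.3, and macrophage-like cells 14.6 and 13.5. The ratio of endothelial-like over VSMC-like cells was 0.772 (0.676 to 0.877) in the control and 0.760 (0.688 to 0.837) in the case library, and that of macrophage-like cells was 0.718 and 0.839. By these 6 markers, Tpm2 was thus not counted above the level that goes with VSMC markers in these classes. Its lower value in case endothelial-like and macrophage-like cells cannot be read as a difference of these cells. In fibroblast-like cells the ratio was 1.03 (0.985 to 1.08) in the control and 0.883 (0.832 to 0.936) in the case library. By this ratio Tpm2 was not above the VSMC level there either, but the ratio depends on which markers are summed. The 6 markers include Cald1, which was less confined to VSMC-like cells than Myh11. Cald1 stood at 248 CPM in control fibroblast-like against 2122 CPM in control VSMC-like cells, and Myh11 at 162 against 4940 CPM. Ratios without Cald1 were not computed, and leaving it out would raise the Tpm2 ratio of fibroblast-like cells relative to VSMC-like cells. Whether Tpm2 of fibroblast-like cells goes beyond the level of VSMC markers was thus not tested, nor whether its lower case value belongs to these cells.

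Tpm1 and Flna differed from Tpm2 in this respect. Tpm1 was counted at 1.68 times the VSMC ratio in control (1.62 to 1.75) and 1.62 times in case fibroblast-like cells (1.56 to 1.68), and at 1.58 and 1.56 times in endothelial-like cells. In macrophage-like cells it stood at 0.869 and 0.962 times, with intervals that include 1. Flna was at 2.16 and 1.78 times in fibroblast-like cells and at 1.61 and 1.60 times in endothelial-like cells. Actb and Vim were far above the VSMC ratio in the other classes. Actb stood at 11.0 and 11.3 times in fibroblast-like cells, at 5.80 and 7.59 times in macrophage-like cells, and at 8.05 and 10.9 times in endothelial-like cells. Vim stood at 9.57 and 11.3 times in fibroblast-like, 4.62 and 7.11 times in endothelial-like, and 35.3 and 15.7 times in Schwann-like cells. Des was at 1.24 times in control fibroblast-like cells (0.836 to 1.77), which does not differ from 1 beyond counting error, and at 1.69 times in case fibroblast-like cells (1.14 to 2.43), from 31 UMIs each. It stood at 2.50 times (1.25 to 4.50) in control and 1.84 times in case endothelial-like cells, the latter with an interval that includes 1, from 11 and 14 UMIs. These UMIs lay in 5% of 60 control and 1.89% of 264 case cells, and the intervals do not cover such spread between cells.

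**Figure D3:**
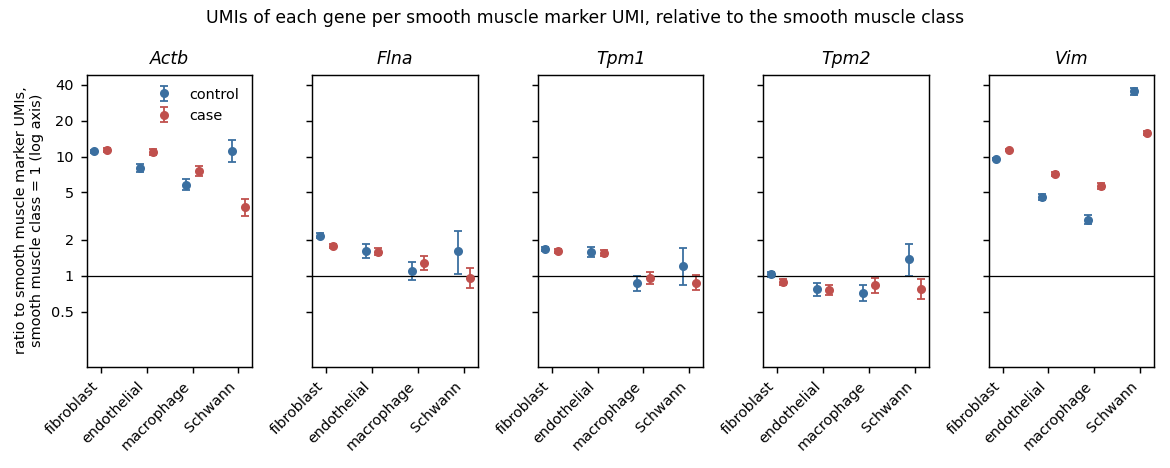
UMIs of 5 genes per UMI of the 6 smooth muscle markers in 4 classes, divided by the same ratio in smooth muscle cells of that library (log axis, control blue, case red); bars are exact 95% intervals for counting error and the line at 1 is the smooth muscle ratio. Actb and Vim stood well above the line, Tpm1 and Flna above it in fibroblast and endothelial cells, and Tpm2 at or below it in fibroblast cells and below it in endothelial and macrophage cells.

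The balance between paired isoforms was compared within a cell class, where the total cancels. There were 1.20 Tpm2 UMIs per Tpm1 UMI in control VSMC-like cells (1.19 to 1.22) and 0.685 in case VSMC-like cells (0.677 to 0.693). The same ratio was lower in the case library in all 5 classes, with 0.994 and 0.597 in macrophage-like, 0.739 and 0.374 in fibroblast-like, 0.587 and 0.334 in endothelial-like, and 1.36 and 0.605 in Schwann-like cells. Since part of these UMIs moved with VSMC markers, the classes are not separate observations of this shift. Tpm4 per Tpm1 was 0.0302 in control and 0.0210 in case VSMC-like cells, and 0.214 and 0.144 in fibroblast-like cells. In endothelial-like cells the ratio was 0.226 (0.178 to 0.285) and 0.218 (0.191 to 0.249), which did not differ beyond counting error.

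The cytoplasmic actins gained on Acta2 in VSMC-like cells. There were 0.802 UMIs of Actb and Actg1 together per Acta2 UMI in the control (0.786 to 0.818) and 1.06 in the case library (1.04 to 1.09). All 3 actin genes were lower in the case library, Acta2 with a log2 ratio of -0.87 (-0.90 to -0.84), so the ratio reflects unequal differences. Acta2 is itself among the markers that define the class. For the myosins the order was the opposite, as Myh10 gave 0.0609 UMIs per Myh11 UMI in the control (0.0588 to 0.0631) and 0.0490 in the case library (0.0473 to 0.0508). In fibroblast-like cells the ratio of Myh10 to Myh11 was 0.365 (0.329 to 0.404) and 0.390 (0.353 to 0.430), which overlapped. Vim UMIs per Des UMI numbered 55.4 in control (51.9 to 59.3) and 66.4 in case VSMC-like cells (61.3 to 72.1). Actb UMIs per Actg1 UMI numbered 25.9 and 38.2 in VSMC-like cells and 12.1 and 23.1 in fibroblast-like cells, against 10.9 and 11.5 in endothelial-like cells.

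VSMC-like cells were also split into tertiles within each library by their share of VSMC marker UMIs, of which none of the 10 genes is a component. Tpm2 followed this share most closely. It stood at 3928, 5266 and 7246 CPM from the lowest to the highest tertile of control cells and at 2455, 3413 and 4822 CPM in case cells. The log2 ratio of the highest over the lowest tertile was 0.88 (0.85 to 0.91) in the control and 0.97 (0.94 to 1.01) in the case library. Tpm1 had ratios of 0.65 and 0.70, Flna of 0.55 and 0.63, Actb of 0.50 and 0.51, and Vim of 0.32 and 0.45. Vim, often used as a marker of less contractile VSMCs, and Actb were thus higher, not lower, in the cells with more VSMC markers. Median depth was lower in the lowest tertile, with 9500 against 12155 UMIs in control and 4869 against 6060 UMIs in case cells.

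Tpm4 and Actg1 did not follow the marker share beyond counting error. Tpm4 stood at 136, 143 and 143 CPM in control and at 117, 104 and 115 CPM in case cells, with log2 ratios of 0.07 (-0.11 to 0.26) and -0.03 (-0.22 to 0.16). Actg1 had ratios of 0.14 (-0.15 to 0.44) and 0.21 (-0.20 to 0.62). Myh10 was highest in the middle tertile of control cells, at 335 CPM against 281 and 281 CPM, while in case cells it stood at 238, 262 and 278 CPM. The differences between libraries were of like size in each tertile for most genes. Tpm2 had log2 ratios of case over control of -0.68, -0.63 and -0.59 from the lowest to the highest tertile, Tpm1 of 0.18, 0.17 and 0.22, and Vim of -0.47, -0.39 and -0.35. Des was uneven, with -0.92, -0.12 and -0.90, and Myh10 in the highest tertile did not differ beyond counting error (-0.02, -0.14 to 0.10).

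**Figure D4:**
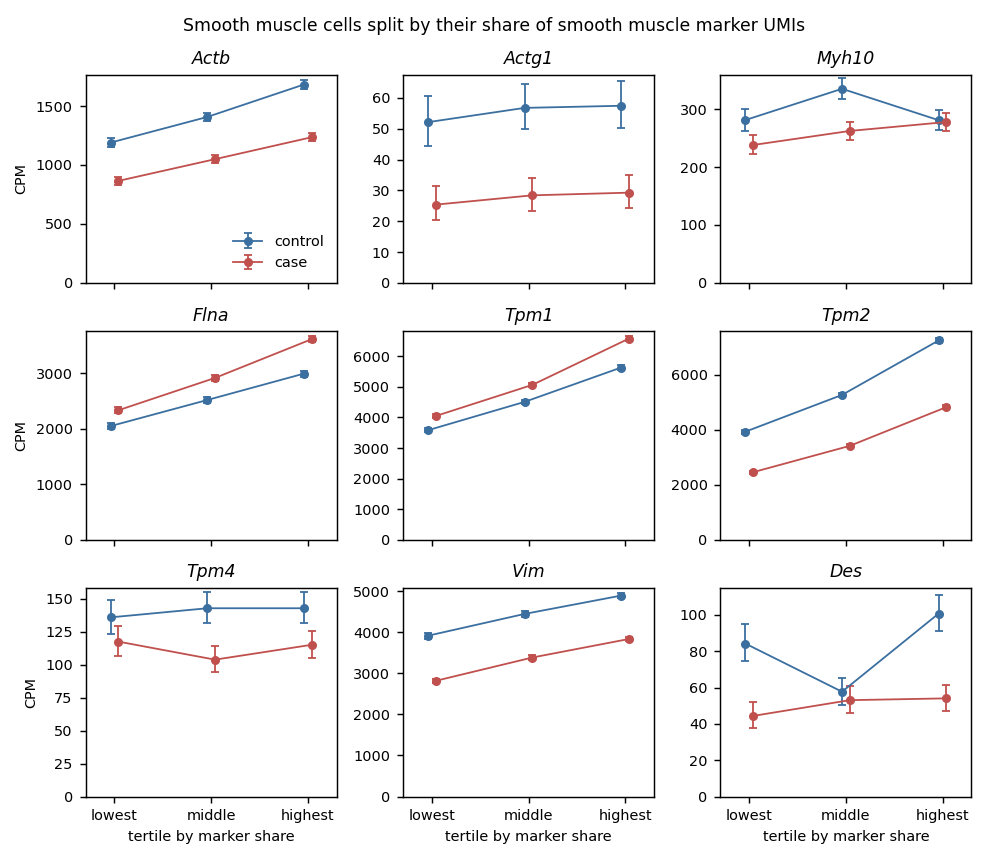
CPM of 9 genes in VSMC-like cells split into tertiles by the share of UMIs from the 6 smooth muscle markers, in control (blue) and case (red) cells; bars are exact 95% Poisson intervals for counting error, and axes start at 0. Tpm2, Tpm1, Flna, Actb and Vim were higher in the highest than in the lowest tertile in both libraries, Tpm4 and Actg1 did not differ between them beyond counting error, and the order of the libraries was the same in each tertile for Tpm1, Tpm2, Flna, Actb, Actg1, Tpm4 and Vim.

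How many cells held each gene was compared after thinning every cell to 1000 UMIs, which left out the shallower cells. Tpm1 was found in 97.3% of control (96.0 to 98.3, Clopper-Pearson) and 98.7% of case VSMC-like cells, Tpm2 in 98.1 and 93.3%, Vim in 96.7 and 91.5%, and Flna in 86.9 and 91.9%. Actb was found in 72.6% of control (69.5 to 75.5) and 61.7% of case VSMC-like cells (59.5 to 63.8). Without thinning, the Actb shares were 84.5 and 97.4%, the reverse order, with the shallow control cells included. Myh10 was found in 24.0 and 20.8% of VSMC-like cells and in 4.82 and 6.18% of fibroblast-like cells. Tpm4 was found in 12.7 and 9.77% of VSMC-like cells, and in 11.7 and 19.3% of endothelial-like cells. Des was found in 5.32 and 4.14% of VSMC-like cells, against 1.07 and 0.403% of fibroblast-like cells, a type that should lack it. The unthinned Des shares were 21.3 and 13.3% of VSMC-like and 3.75 and 1.61% of fibroblast-like cells. Median depth was 11594 and 5554 UMIs in VSMC-like and 10817 and 5122 UMIs in fibroblast-like cells.

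In fibroblast-like cells the share with Tpm2 was 21.0% in the control (18.1 to 24.1) and 11.6% in the case library (9.98 to 13.3), while the share with Tpm1 was 24.9 and 28.9% and that with Vim 68.3 and 70.4%. Among the genes of high level, Tpm2 also had the largest Fano factor (variance over mean of thinned counts) in VSMC-like cells of the control library. It was 2.05, against 1.55 in the case library, where the mean was also lower, at 3.49 against 5.63 UMIs per cell. These factors were not corrected for level. Vim stood at 1.64 and 1.51, Tpm1 at 1.44 and 1.54, Flna at 1.31 and 1.33, and Actb at 1.19 and 1.13. A value of 1 is what counting alone gives. Des had 2.49 and 1.83, although its mean was below 0.1 UMI per cell.

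**Figure D5:**
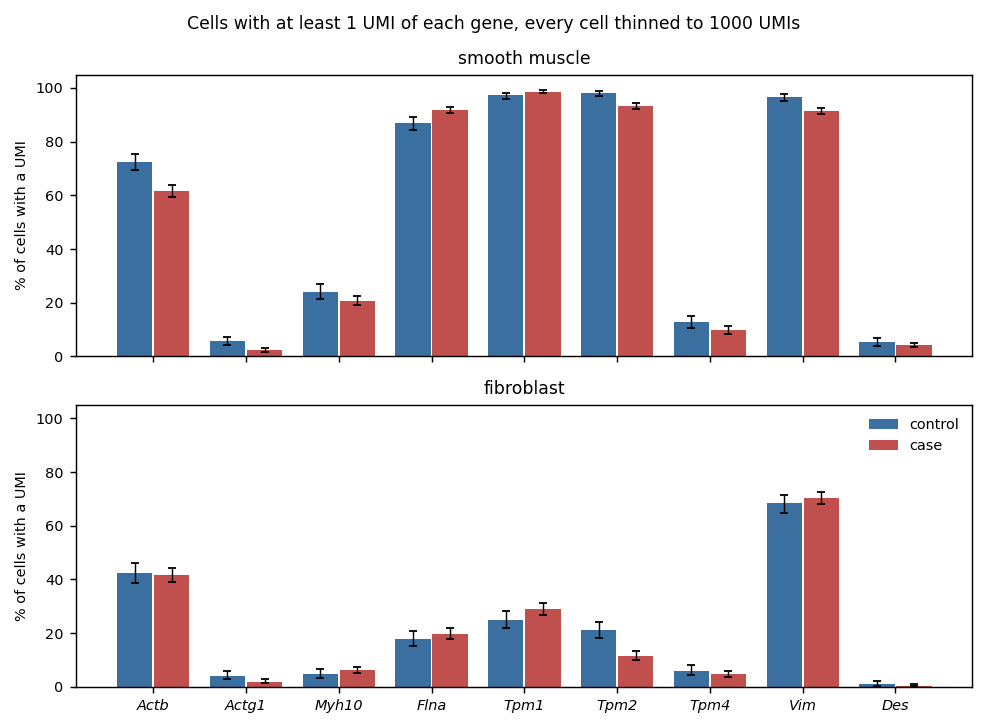
Percentage of VSMC-like (top) and fibroblast-like (bottom) cells with at least 1 UMI of each gene after every cell was thinned to 1000 UMIs, in the control (blue) and case (red) libraries; bars start at 0 and error bars are exact 95% Clopper-Pearson intervals for counting error. Tpm1, Tpm2, Vim and Flna were found in 86.9% or more of VSMC-like cells, Actb in fewer case than control cells, and Tpm2 in fewer case than control fibroblast-like cells.

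Des was held by a small part of the VSMC-like cells. Among 813 control and 1240 case cells thinned to 5000 UMIs, 134 control cells (16.5%) and 150 case cells (12.1%) had a Des UMI. The 5% of cells with the most Des held 69.8% of its UMIs in the control and 72.2% in the case library, and single cells reached 17 and 12 UMIs. Actg1 also had a low total at this depth, with 229 control and 154 case UMIs against 315 and 317 for Des. It was spread over 207 and 139 cells, with at most 3 UMIs per cell. The 5% of cells with the most Actg1 held 27.5% of its UMIs in the control and 50% in the case library. Most Des UMIs of each library thus lay in few cells, and 20 control and 14 case cells held 5 or more. The share of cells with any Des UMI was also lower in the case library, as given above. Whether the lower case level lies in the cells with most Des was not tested. Tpm1, Vim, Flna and Tpm2 were in every control cell at this depth, and between 9.20% (Tpm1) and 10.9% (Tpm2) of their UMIs lay in the top 5% of cells.

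Across the same thinned cells the genes were correlated with the VSMC markers to unequal degrees. Spearman's rank correlation with the summed markers was 0.60 in control and 0.62 in case cells for Tpm2, 0.53 and 0.55 for Tpm1, 0.33 and 0.46 for Flna, 0.27 and 0.24 for Vim, and 0.27 and 0.27 for Actb. Myh10 stood at -0.01 and 0.06. Between members, Tpm1 and Tpm2 had the highest value, 0.42 in control and 0.41 in case cells, and Tpm1 and Vim had 0.29 and 0.23. Cells of a library share its preparation and depth, so these values describe 813 and 1240 cells and carry no test.

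The wider cytoskeleton was read from lists of myosin light chains, cross-linkers, adhesion plaque, actin turnover, intermediate filament and tubulin genes. In VSMC-like cells the actin turnover genes held most of those past 1.5-fold, with 1 of 14 tested genes higher and 4 lower and a median log2 ratio of -0.37, beside the 9.55% and 17.7% of all genes given above. This list was also the longest, with 14 of the 40 genes tested. Some of its lower genes lay close to the limit, at log2 ratios of -0.61, and TMM scaling takes these out of it. Tmsb4x, the actin monomer binder, was lower with 9005 and 4524 CPM, and Pfn1, profilin, with 1362 and 714 CPM. Tmsb10, a close relative of Tmsb4x, was higher, with 1541 and 2849 CPM. Of the non-muscle myosin light chains, 2 of 3 were lower, Myl12a with 1630 and 771 CPM and Myl12b with 144 and 95.4 CPM. Myl12b, at a log2 ratio of -0.59, is taken out of the limit by TMM scaling as well. Myl6, the essential light chain, differed less, with 5255 and 4360 CPM. Tropomyosin Tpm3 was near even, with 163 and 172 CPM, a log2 ratio of 0.07 (-0.02 to 0.16).

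Genes that anchor the filaments were read in VSMC-like cells next. None of 5 adhesion plaque, 3 cross-linker and 3 intermediate filament genes tested passed 1.5-fold, where 9.55% of all genes were higher and 17.7% lower, so few would be past it in lists of this size. Actn1, which bundles actin, stood at 1016 and 994 CPM, its relative Actn4 at 902 and 963 CPM, and Flnc, the muscle filamin, at 92.6 and 99.0 CPM. Csrp1 was lower with 2114 and 1654 CPM, Vcl with 686 and 621 CPM, and Zyx was higher with 306 and 323 CPM. Synm, which joins desmin and vimentin filaments, stood at 141 and 122 CPM, and Lmna at 1263 and 1085 CPM, while the linker Plec was at 182 and 198 CPM. Of the tubulins, Tubb5 passed 1.5-fold upward with 185 and 288 CPM and Tuba1a, just at the limit, downward with 314 and 209 CPM. Tubb6 stood at 169 and 234 CPM, and Tubb4b at 356 and 345 CPM.

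The actin turnover list gave 1 higher and 2 lower of 9 genes in fibroblast-like cells, 2 higher and 4 lower of 12 in endothelial-like cells, and 0 higher and 2 lower of 13 in macrophage-like cells. Of all genes, 8.17% were higher and 15.1% lower in the first of these classes, 16.7% and 22.8% in the second, and 11.9% and 15.6% in the last, so most of these counts lie near the background. Tmsb10 was higher in the case library in fibroblast-like cells, with 4007 and 6243 CPM, and in endothelial-like cells, with 1436 and 3051 CPM. Myl12a was lower in all 4 classes, with log2 ratios of -1.08 in VSMC-like, -0.90 in endothelial-like, -0.68 in fibroblast-like and -0.60 in macrophage-like cells. Actn1 was higher in endothelial-like cells, with 386 and 615 CPM, a log2 ratio of 0.67 (0.44 to 0.91).

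The endothelial values rested partly on few cells. With the cells of highest Scrublet doublet score left out, which removed 1 of 60 control and 23 of 264 case endothelial-like cells, the log2 ratio of Flna went from 0.25 to -0.17, that of Tpm1 from 0.21 to -0.15, and that of Tpm2 from -0.61 to -1.62. Vim and Actb stayed near their values, at 0.31 and 0.04. With endothelial-like cells of 0.5% or more VSMC marker UMIs left out, 4 control and 15 case cells, Tpm2 stood at -1.06, Vim at 0.48, Flna at 0.27 and Tpm1 at 0.15. Leaving out those cells thus did not turn the direction of Flna or Tpm1. It did turn with classes from Leiden clusters, to -0.04 for Flna and -0.39 for Tpm1, and for Flna in thinned cells, to -0.01. Vim came to 0.08 with classes from Leiden clusters. Of the Leiden clusters given to this class, 1 held 69 control and 0 case cells, and only 50% of its marker-classed cells were endothelial-like. What part that cluster had in the change of sign was not tested.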

How the data were processed

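For both libraries the authors deposited 1 matrix of UMI counts per gene and cell barcode, with gene and barcode names. It was written by Cell Ranger 3.1.0, with STAR as aligner per the methods. The submitters' processing notes name build Rnor_6.0 and Seurat. Whether counts were down-sampled when the libraries were joined is not given in the sources used here. Each library comes from the pooled arteries of 2 rats, and the kept cells held 23974210 (control) and 27054902 (case) UMIs.

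A barcode was kept with at most 20% mitochondrial UMIs, log10 UMIs and genes within 2 SD of the library mean, and genes within 3 robust SD of the line of genes on UMIs. A cell was endothelial-like, macrophage-like or Schwann-like when markers of 1 such type alone took at least 0.05% of its UMIs, with 2 or more genes and 3 or more UMIs. Other cells were VSMC-like when the 6 VSMC markers took at least 0.5% of UMIs and at least 80% of VSMC and fibroblast marker UMIs, and fibroblast-like when fibroblast markers took at least 0.5% and VSMC markers 20% or less. By the limits for the endothelial, macrophage and Schwann types, 4 cells were classed as T cells and 5 as red blood cells, and these were not used. Pecam1, Col1a2, Trac and Hba-a1 were not listed. The limits were chosen with the data in view, and the 10 genes and the lists were chosen with earlier results of these data known.

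UMIs were summed per class and library and given as CPM. Intervals are exact 95% intervals (Poisson for sums, conditional binomial for ratios, Clopper-Pearson for shares). With 1 library per group, no p-value is given, and a fit with a replicate block could not be made. Named beside the 10 genes were, per list, at most the 2 largest rises and 2 largest falls in VSMC-like cells with a mean of at least 100 CPM, and Tpm3, Flnc, Actn1, Myl6 and Synm in any case; genes described in other classes beyond these, and marker genes, were given as checks or chosen after their values were seen. Scrublet called 6 of 7672 cells (0.0782%) as doublets, which is too few for the caller to have worked, and doublets were left in. Results of a further gene list are not reported here. The log2 ratio of summed UMIs with its interval, and the thinning, were tested on simulated data. The simulated sums were Poisson draws, so spread beyond counting error was not part of that test. The cell filter, classes, tertiles and clustering were not simulated. A total of 12 planned and 4 added alternatives was run. Work was done in R 4.3.3 with edgeR 4.0.16 and Python 3.11.15 (scanpy 1.11.5, leidenalg 0.10.2, pandas 2.3.3, scipy 1.17.1, numpy 2.4.6, matplotlib 3.10.9), edgeR being used for TMM factors only.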

Additional observations from a re-analysis of the deposited data

Results flagged for a closer look

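Vim and Myh10 differed between the libraries in opposite directions in different cell classes, each beyond counting error. The log2 ratio of case over control for Vim was -0.40 in VSMC-like cells, and 0.25 in macrophage-like, 0.26 in endothelial-like and 0.11 in fibroblast-like cells. For Myh10 it was -0.21 in VSMC-like and 0.20 in fibroblast-like cells. With 1 library per group, the difference between classes was not tested. The signs of both genes in VSMC-like and fibroblast-like cells were kept under each alternative, although Myh10 in VSMC-like cells came to -0.07 with TMM scaling. Vim in macrophage-like cells came to -0.03 in thinned cells, and Vim in endothelial-like cells to 0.08 with classes from Leiden clusters.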

How the results depend on the processing

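Of 490 log2 ratios recomputed under the alternatives, 400 stayed within the counting interval of the reported value, 90 moved beyond it and 26 had the opposite sign, none of them in VSMC-like cells. The counts past 1.5-fold were small, and 25 of 128 moved. The number of lower genes was 0 in all 4 classes with TMM scaling and with a limit of 2-fold, and without mitochondrial and ribosomal genes in the total it was 0 in every class but macrophage-like cells. It was 0 in endothelial-like and macrophage-like cells with marker limits doubled and in thinned cells. In fibroblast-like cells it was also 0 with no filter on barcodes, a mitochondrial limit of 10%, cells under 2000 UMIs left out, classes from Leiden clusters and a marker dominance of 60%, and in macrophage-like cells it was 0 without the highest Scrublet scores. With a minimum of 20 CPM it was 3 in VSMC-like cells and 2 in both fibroblast-like and macrophage-like cells. In macrophage-like cells these were Actg1 and Tpm2, with log2 ratios of -1.25 and -0.68. Of all 4581 genes with that mean in macrophage-like cells, the lowest 10% had log2 ratios of -0.83 or less, also past 1.5-fold. The number of higher genes was 1 (Tpm4, log2 ratio 0.96) in thinned endothelial-like cells. Without thinning, 16.7% of all genes were higher in that class, and the share in thinned cells is not given here. Tpm2 was the gene lost, and its log2 ratio stayed below 0 in these 4 classes under each alternative. Marker dominance of 60 and 90%, leaving out endothelial-like and macrophage-like cells rich in VSMC markers, and leaving out 73 control and 223 case cells of highest Scrublet score were chosen after seeing the data. The doublets Scrublet called included no cell of the 4 classes, so that alternative could change nothing. Marker dominance could change nothing in endothelial-like and macrophage-like cells. Leaving out cells of those classes rich in VSMC markers could change nothing in VSMC-like and fibroblast-like cells. Part of the 400 values that stayed were thus fixed in advance. No paired analysis was possible because each group is 1 library, and no replicate could be left out. Depth limits Des and Actg1 in the smaller classes.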
